A study of Mus musculus with 10 samples.

Results

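The genes described here are 10 antiviral effectors that interferon induces, namely Ifit1, Ifit2, Ifit3, Ifitm3, Bst2, Rsad2, Mx1, Ifi44, Rtp4 and Xaf1. They were chosen by symbol, each symbol matched 1 row, and they are 10 of 78317 genes listed. The tissue was the medial prefrontal cortex, punched from mouse brain, and its polyadenylated RNA was sequenced in bulk. An adeno-associated virus (AAV) had been used to overexpress miR-130a-3p, a microRNA, in the mice of libraries 13, 14, 15, 17 and 18. The mice of libraries 3, 4, 5, 7 and 9 had received a control AAV. The genotype of all 10 was wild type (WT) and the cells were mixed. Strain, age, time after the virus and the promoter of the AAV are not given in the sources used here. Both groups received a virus, so neither is an uninjected brain. The design asks which transcripts differ when this microRNA is overexpressed. Its gene, Mir130a, was listed at 0 in all 10 libraries. Mature microRNAs carry no poly(A) tail, so this value does not check the labels.

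Cells that sense a virus secrete type I interferon, which binds the receptor chains Ifnar1 and Ifnar2 on the same or neighbouring cells. The kinases Jak1 and Tyk2 then activate a complex of transcription factors that includes Stat2 and Irf9 and binds the interferon-stimulated response element (ISRE) in front of many genes. The effectors act at separate steps of infection: Ifitm3 blocks fusion at entry, the IFIT proteins bind viral RNA or each other, Rsad2 makes a nucleotide that ends viral RNA chains, and Bst2 holds budding particles at the cell surface. In the brain, microglia, endothelial cells, astrocytes and neurons can all switch on such genes.

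All 10 effectors were lower in miR-130a libraries than in control libraries and passed the test over all genes (limma with Benjamini-Hochberg adjustment over 15680 genes, adjusted p from 0.00205 to 0.0270). Across the tested genes, 11.3% were called lower and 2.19% higher. Levels are in TPM, a share of a library's transcripts corrected for length. The miR-130a mean stood at 26.0% of the control mean for Ifit3, the lowest share, and at 44.4% for Rsad2, the highest. The median log2 fold change of the 10 was −1.66, against −0.095 for all tested genes, a difference of −1.56. These genes were picked with earlier results of these data known, so their shared direction is a description and not a test.

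The members' promoters were searched for the element that this complex binds. The members were chosen as interferon-induced genes, so their share of matches is not a test of why they moved together. A match of letters is a description and not a site shown to be bound. RefSeq promoter windows, from 250 bases before to 50 bases after the start site in the build GRCm38.p6, were found for 8 of the 10 members, with 2 windows for Ifit2. Windows were searched for the ISRE core GAAANNGAAA on both strands, read as TTTCNNTTTC on the other strand. Of the 8 members, 5 (62.5%) had a match, and so did 17 of 32 other interferon-induced effectors (53.1%). The share was 3.797% of 10981 tested genes with a window and 3.99% of all 27025 genes in that table. In the sequences, each written 5′ to 3′ along the gene, capitals mark the ISRE matches.
Ifit1, chr19:34640760-34640838, plus strand: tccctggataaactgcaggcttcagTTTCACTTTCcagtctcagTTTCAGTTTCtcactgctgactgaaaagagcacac
Ifit3, chr19:34583348-34583441, plus strand: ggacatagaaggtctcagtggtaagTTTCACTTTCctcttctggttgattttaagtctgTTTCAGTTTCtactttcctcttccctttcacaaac
Bst2, chr8:71537562-71537627, minus strand: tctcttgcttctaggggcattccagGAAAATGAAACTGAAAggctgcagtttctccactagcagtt
Rsad2, chr12:26456538-26456597, minus strand: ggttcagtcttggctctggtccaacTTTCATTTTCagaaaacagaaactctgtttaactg
Ifitm3, chr7:141010714-141010743, minus strand: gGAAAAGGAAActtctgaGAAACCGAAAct

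Ifit1 and Ifit3, both on chromosome 19, carried the same pair of matches in the same order, TTTCACTTTC and then TTTCAGTTTC. In Ifit1 they began 104 and 85 bases before the start site, and in Ifit3 156 and 122 bases before it. The matches of Bst2, at −130 and −124, overlap each other, and the single match of Rsad2 began at −120. Those of Ifitm3 lay past the start site, at positions 3 and 20. Windows of Ifit2, Ifi44 and Xaf1 held no match to these letters, which says nothing of the factor. The interferon-gamma element GAS, searched as TTCNNNGAA, which reads the same on both strands, matched in Ifit2, Ifitm3 and Bst2. Those are 3 of 8 members (37.5%), against 8.01% of tested genes with a window; the matches of Ifitm3 and Bst2 overlap an ISRE match.

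**Figure D1:**
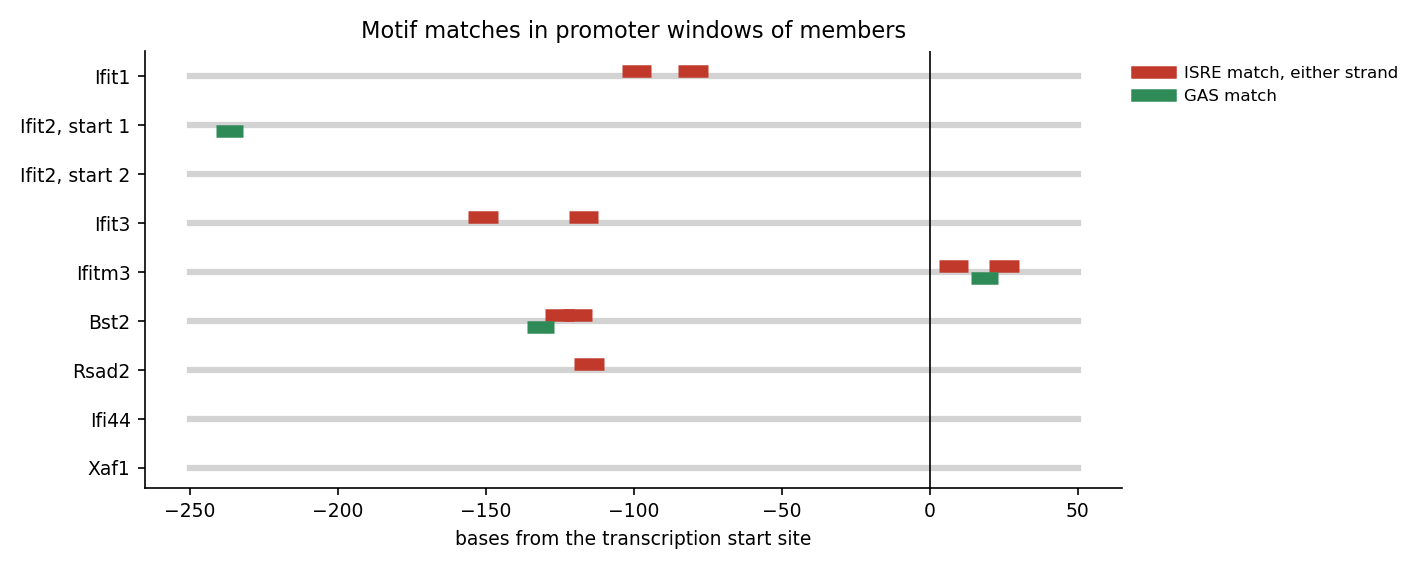
Positions of ISRE matches (red) and GAS matches (green) in the promoter windows of 8 members; the x axis is the distance in bases from the transcription start site, and each grey bar is 1 window. Ifit1, Ifit3, Bst2 and Rsad2 have ISRE matches between −156 and −85, while those of Ifitm3 lie past the start site.

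The overexpressed microRNA was compared with the members' 3′ untranslated ends. Its mature RefSeq sequence is shown with the seed, bases 2 to 8, in capitals, because a target transcript is recognised by pairing to it.
mmu-miR-130a-3p: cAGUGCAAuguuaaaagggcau
Sites were searched as TTGCACT (pairing to bases 2 to 8) and TGCACTA (bases 2 to 7, then an A) in the longest annotated 3′ UTR of each gene, in GENCODE M21 transcripts. Among the members, Rtp4 and Xaf1 had a site, 1 each, so that 2 of 10 members held one, against 16.8% of 13307 tested genes with an annotated 3′ UTR. Both sites are shown in capitals within 30 bases.
Rtp4, position 202 of 753: gctgaactgtcTGCACTAgcttgctcacgt
Xaf1, position 978 of 1727: gctttcgcttcTTGCACTgaactcgagcac
The other members had 3′ UTRs of 139 (Ifitm3) to 3613 bases (Rsad2) with 0 sites.

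The IFIT family comes first by role. Ifit1 (ENSMUSG00000034459) binds the capped end of viral RNA that lacks host methylation. It had 7.40, 6.94, 17.1, 2.86 and 10.7 TPM in miR-130a libraries 13, 14, 15, 17 and 18, against 17.3, 41.6, 33.6, 45.3 and 32.7 TPM in control libraries 3, 4, 5, 7 and 9. The groups did not overlap, but miR-130a library 15 and control library 3 nearly met. The means were 9.0 ± 5.30 TPM in miR-130a and 34.1 ± 10.8 TPM in control libraries (SD, n = 5 each), with a log2 fold change of −1.92 ± 0.37 (SE; limma adjusted p = 0.00655). Fold changes throughout are on the log2(TPM + 1) scale, which understates those of weakly expressed genes.

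Ifit3 (ENSMUSG00000074896), whose human counterpart binds and stabilises IFIT1, was the most abundant of the family. It had 23.8, 20.2, 74.9, 18.8 and 42.8 TPM in miR-130a libraries in the same order, against 86.8, 141, 111, 179 and 177 TPM in controls. Again the groups did not overlap, and again library 15 was the highest of its group. The log2 fold change of −2.07 ± 0.35 (SE; limma adjusted p = 0.00386) was the largest decrease among the members. Ifit3 and its copy Ifit3b share sequence: 41.1% of the 75-base windows in Ifit3 transcripts occur in Ifit3b, so the split of reads between them is uncertain. Ifit3b itself averaged 10.3 ± 6.72 and 30.5 ± 6.79 TPM (SD, n = 5 each) in miR-130a and control libraries and also fell (log2 fold change −1.63, limma adjusted p = 0.00791).

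Ifit2 (ENSMUSG00000045932), which binds AU-rich RNA and in mice protects the brain from some viruses, changed with less margin. It had 5.58, 6.54, 12.9, 2.99 and 8.95 TPM in miR-130a libraries, against 14.5, 14.8, 12.7, 25.4 and 25.3 TPM in controls. Library 15 lay above control library 5, so the groups overlapped. Ifit2 fell with a log2 fold change of −1.28 ± 0.31 (SE; limma adjusted p = 0.0191), but the call was lost without control library 7 (adjusted p = 0.0529) or without miR-130a library 13 (adjusted p = 0.0514). Of the remaining relatives, Ifit1bl1 was at 3.19 ± 0.66 TPM in miR-130a and 3.40 ± 0.61 TPM in control libraries and did not pass (SD, n = 5 each; limma adjusted p = 0.797). Ifit1bl2, which shares 5.19% of the 75-base windows of Ifit1, stayed under the level tested, a mean of 1 TPM over all libraries.

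Among effectors that act at membranes, Ifitm3 (ENSMUSG00000025492), which stops virus envelopes from fusing with endosomes, was the most abundant member in all 10 libraries. It had 70.4, 59.7, 148, 73.8 and 90.4 TPM in miR-130a libraries, against 229, 284, 216, 467 and 462 TPM in controls. Every miR-130a library lay below every control library, with control libraries 7 and 9 far above the other controls. Its log2 fold change was −1.89 ± 0.28 (SE; limma adjusted p = 0.00205), the lowest p of the 10. Its relatives had smaller differences that did not pass: Ifitm1 was at 8.99 ± 4.03 and 19.5 ± 9.85 TPM (limma adjusted p = 0.0950) and Ifitm2 at 28.0 ± 3.59 and 44.0 ± 16.01 TPM (limma adjusted p = 0.0689) in miR-130a and control libraries (SD, n = 5 each).

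Bst2 (ENSMUSG00000046718), or tetherin, ties budding virus particles to the cell they leave. It had 34.9, 32.8, 97.4, 48.6 and 42.7 TPM in miR-130a libraries, against 114, 135, 70.2, 236 and 253 TPM in controls. Library 15 again passed control library 5, and the 5 controls spread more widely for Bst2 than for any other member, with an SD of 49.1% of the mean. The log2 fold change was −1.60 ± 0.37 (SE; limma adjusted p = 0.0153). It was −1.11 without control libraries 7 and 9 (limma adjusted p = 0.0488).

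Rtp4 (ENSMUSG00000033355) helps carry receptors to the cell surface and binds RNA of some viruses. It had 6.45, 8.58, 27.4, 6.55 and 10.3 TPM in miR-130a libraries, against 23.9, 35.9, 32.8, 43.4 and 59.3 TPM in controls. Apart from library 15, which lay above control library 3, each miR-130a library was below each control. Rtp4 fell with a log2 fold change of −1.78 ± 0.35 (SE; limma adjusted p = 0.00723), and 10.5% of its 75-base windows occur in the gene model Gm45338.

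Rsad2 (ENSMUSG00000020641), or viperin, turns a normal nucleotide into one that stops viral polymerases. It had 2.89, 1.93, 6.04, 1.63 and 2.59 TPM in miR-130a libraries, against 4.6, 5.67, 5.77, 9.55 and 8.39 TPM in controls. Library 15 exceeded control libraries 3, 4 and 5, the most of any member. The log2 fold change was −1.01 ± 0.26 (SE; limma adjusted p = 0.0270), and the call rested on several libraries. It was lost without control library 7 (adjusted p = 0.0726) and without miR-130a libraries 13 (0.0583), 14 (0.0702), 17 (0.0566) or 18 (0.0519). Cmpk2, the neighbour of Rsad2, whose enzyme makes the nucleotide that Rsad2 converts, fell without overlap between groups, at 17.2 ± 2.92 TPM in miR-130a and 26.5 ± 2.38 TPM in control libraries (SD, n = 5 each; log2 fold change −0.60, limma adjusted p = 0.00701).

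Mx1 (ENSMUSG00000000386) encodes a dynamin-like GTPase of the nucleus that blocks influenza virus, and common laboratory strains carry a broken copy. The deposited table gives its biotype as protein_coding_LoF, so its transcript is counted here with no statement on a working protein. It had 0.43, 0.71, 1.62, 0.12 and 1.43 TPM in miR-130a libraries, against 2.77, 2.47, 1.92, 3.19 and 2.65 TPM in controls. The groups did not overlap at these low levels. Mx1 averaged 0.862 TPM in miR-130a and 2.60 TPM in control libraries, so it met the filter of 1 TPM only through the controls. The log2 fold change was −1.01 ± 0.24 (SE; limma adjusted p = 0.0165) with a pseudocount of 1 TPM and −1.82 (limma adjusted p = 0.0329) with 0.1 TPM. Its paralog Mx2, at 1.16 ± 1.03 and 3.05 ± 0.99 TPM in miR-130a and control libraries, fell as well (SD, n = 5 each; limma adjusted p = 0.0434).

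Ifi44 (ENSMUSG00000028037), an interferon-induced cytoplasmic protein of less settled function, had 1.16, 1.98, 5.25, 0.88 and 2.10 TPM in miR-130a libraries, against 5.26, 6.03, 6.63, 10.4 and 7.65 TPM in controls. The groups were barely parted, between miR-130a library 15 and control library 3. The log2 fold change was −1.43 ± 0.29 (SE; limma adjusted p = 0.00895). Its relative Ifi44l was near 0 in both groups and was not tested.

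Xaf1 (ENSMUSG00000040483), known from human cells as a partner that opposes the apoptosis inhibitor XIAP, had 14.3, 12.4, 36.1, 14.6 and 19.2 TPM in miR-130a libraries, against 35.01, 73.4, 64.6, 79.3 and 63.4 TPM in controls. Only library 15 reached the control range, just above control library 3. Xaf1 fell with a log2 fold change of −1.71 ± 0.28 (SE; limma adjusted p = 0.00330). Xiap itself was at 24.3 ± 3.8 TPM in miR-130a and 22.3 ± 1.81 TPM in control libraries and did not pass (SD, n = 5 each; limma adjusted p = 0.594).

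**Figure D2:**
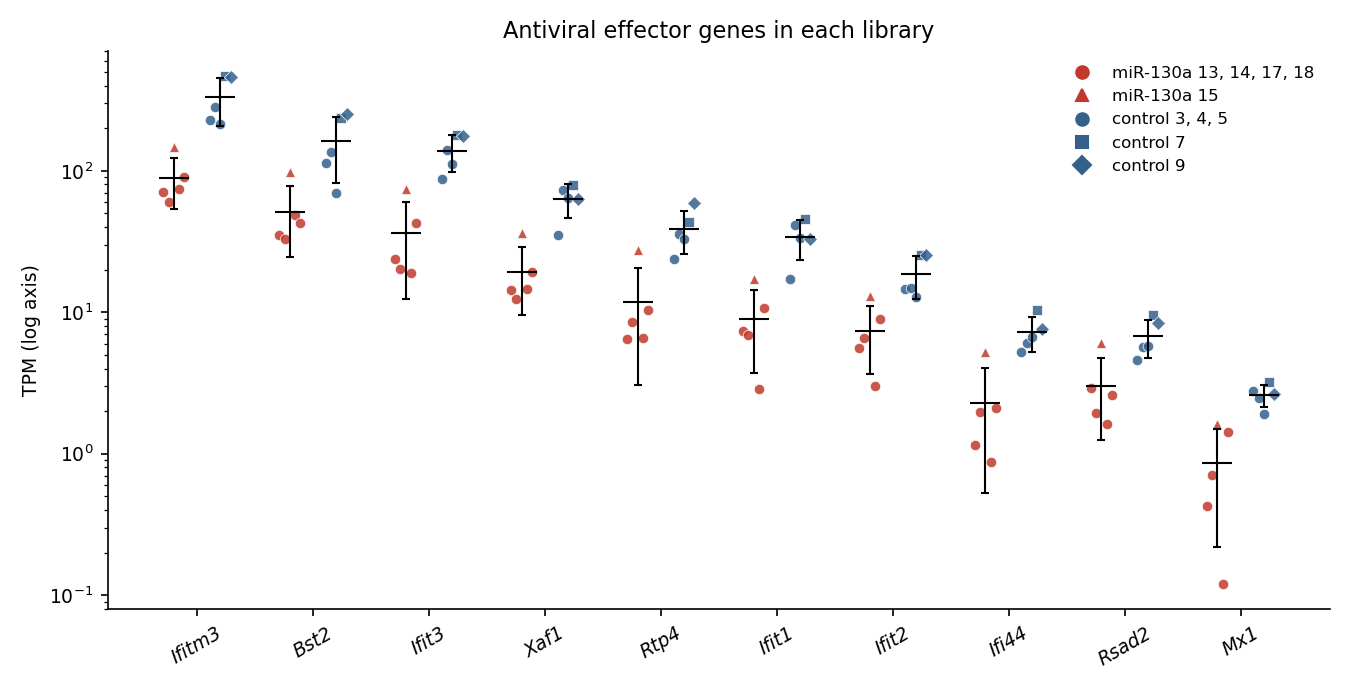
TPM of the 10 members on a log axis, with 1 point per library, miR-130a in red left of control in blue; black bars are the mean and SD of 5 libraries, and triangles, squares and diamonds mark miR-130a library 15 and control libraries 7 and 9. The groups are apart in Ifit1, Ifit3, Ifitm3, Mx1 and Ifi44, and miR-130a library 15 is the highest of its group for every member.

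Of the 10 members, 5 had every miR-130a library below every control library, against 9.46% of all tested genes. One of these 5, Mx1, met the filter on low values only through the controls. TPM divides by transcript length, so mean levels are ordered here between genes as a description. Sequence shared with other genes leaves the places of Ifit3 and Rtp4 less certain. In controls the order of mean level was Ifitm3, Bst2, Ifit3, Xaf1, Rtp4, Ifit1, Ifit2, Ifi44, Rsad2 and Mx1, over a span from 332 to 2.60 TPM. In miR-130a libraries the same order ran from 88.5 to 0.862 TPM, except that Rsad2 at 3.02 TPM stood above Ifi44 at 2.27 TPM. Several neighbours were not separable by their spread: Bst2 exceeded Ifit3 in 7 of 10 libraries, Rtp4 exceeded Ifit1 in 5 of 10, and Ifi44 exceeded Rsad2 in 1 of 5 miR-130a and 4 of 5 control libraries.

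**Figure D3:**
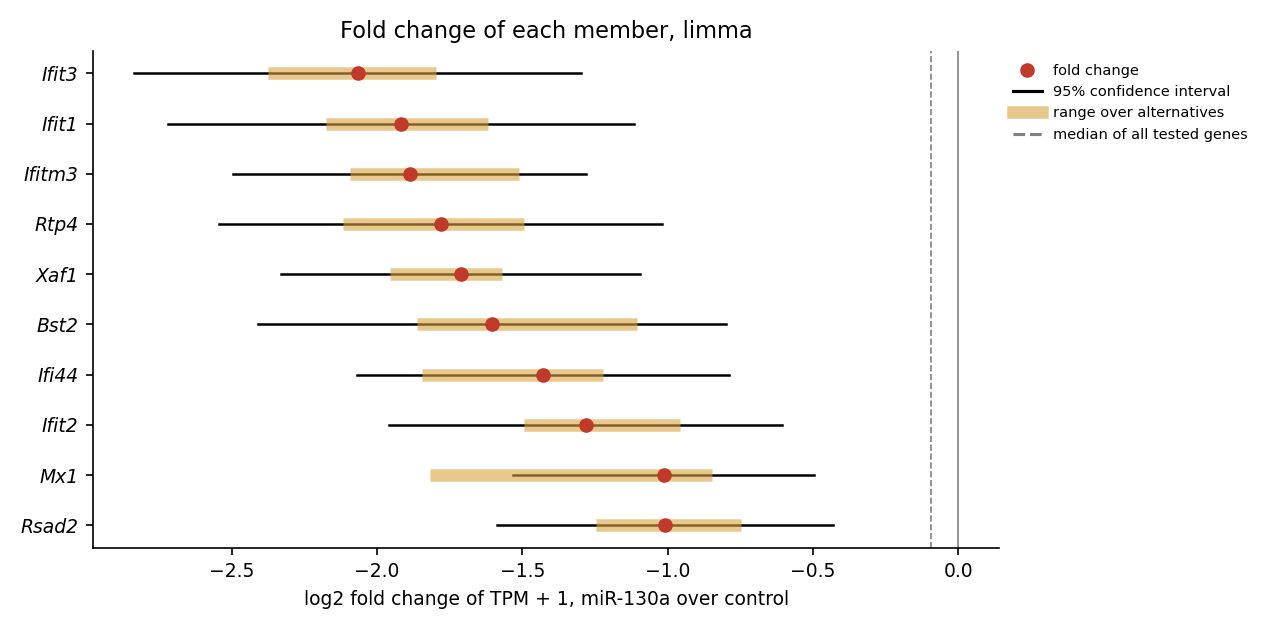
Log2 fold change of TPM + 1 for each member, miR-130a over control (red points), with the 95% confidence interval (black) and the range over 21 alternative settings (yellow); the dashed line is the median of all tested genes. Fold changes run from −2.07 for Ifit3 to −1.01 for Rsad2, and all intervals lie below 0, the nearest limit being −0.43 for Rsad2.

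The proportions between members were compared within libraries for 8 pairs, as a description. The ratio of Ifit1 to Ifit3 was similar in both groups, with a median of 0.250 in miR-130a and 0.253 in control libraries and overlapping ranges. The ratio of Rsad2 to Ifit3 was the only one of the 8 without overlap, from 0.0605 to 0.121 in miR-130a and from 0.0401 to 0.0534 in control libraries. The ratio of Ifit1 to Ifit2 had a median of 1.198 in miR-130a and 1.78 in control libraries, and its ranges overlapped.

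Libraries stood apart within both groups. Expressed as a share of each gene's control mean, the 10 members had a median of 61.3% in miR-130a library 15, and of 21.4%, 21.2%, 16.4% and 30.6% in libraries 13, 14, 17 and 18. Library 15 was the highest of its group for all 10 members. Among controls, library 7 was the highest for 8 members and library 9 for Bst2 and Rtp4, with medians of 135% and 125%, while libraries 3, 4 and 5 had 68.4%, 88.8% and 82.0%. Control library 3 was lowest for 6 members and control library 5 for 4. Without library 15, all 10 members passed. Without control libraries 7 and 9, 7 of 10 passed in limma, and Ifit2 (adjusted p = 0.0739), Rsad2 (0.103) and Mx1 (0.0559) did not. Without all 3 of these libraries, a choice made after seeing the data, 10 of 10 passed.

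**Figure D4:**
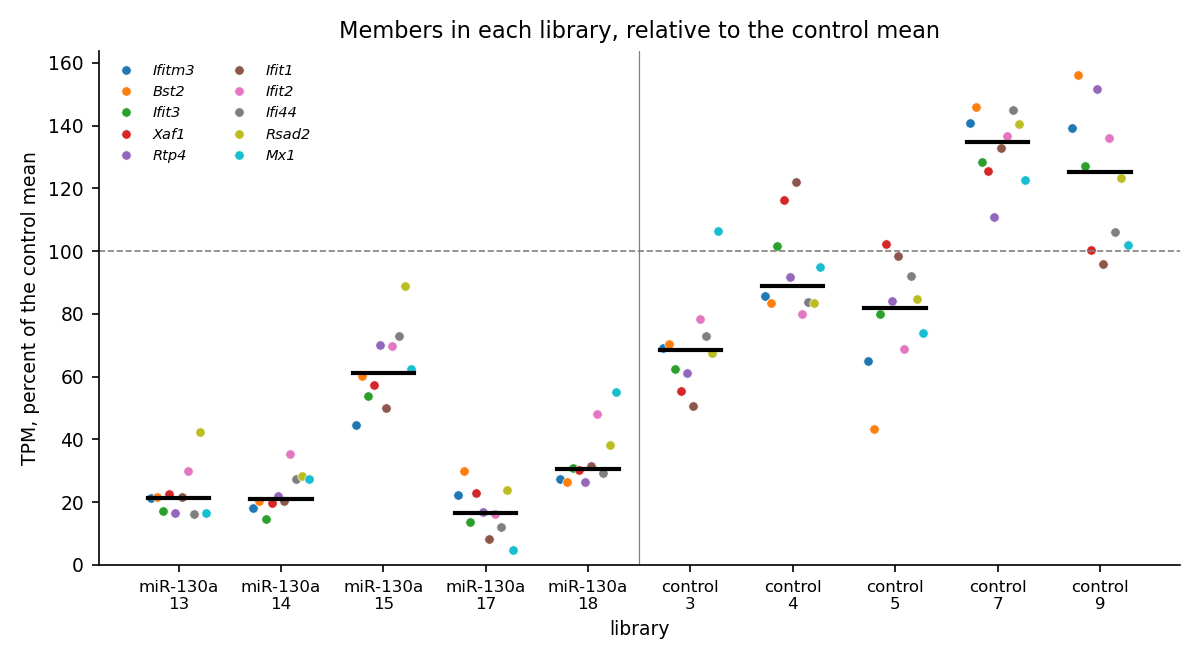
TPM of each member as a percentage of its mean over the 5 control libraries (y axis), for each library (x axis, miR-130a left of control); points are genes and black bars the median of the 10. The miR-130a medians run from 16.4% to 61.3%, with library 15 highest, and the control medians from 68.4% to 135%.

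Markers of several cell types moved with these genes. Of 11 tested microglial markers, 9 were lower and 0 higher in miR-130a libraries, and none of the 11 was at 0. The median log2 fold change of the 11 was −0.90. P2ry12 (−0.20, limma adjusted p = 0.485) and Gpr34 (−0.43, limma adjusted p = 0.0636) did not pass. The largest decrease of this list was that of Csf1r. Csf1r, the survival receptor of microglia, was at 55.7 ± 13.1 TPM in miR-130a and 147 ± 23.4 TPM in control libraries (SD, n = 5 each; limma adjusted p = 0.000873). The summed microglial markers ranged from 368 to 459 TPM in miR-130a and from 709 to 907 TPM in control libraries. Control libraries 9 and 7 had the highest microglial sums, 907 and 844 TPM, as they did for the antiviral genes. The other libraries did not keep the same order. Control library 4 had the lowest sum of its group, 709 TPM. Its median antiviral share of the control mean, 88.8%, was above those of control libraries 3 and 5. The miR-130a library 15, highest of its group for all members, lay in the middle of its group at 407 TPM. Library 17 had the highest sum of that group, 459 TPM, and the lowest median antiviral share, 16.4%. In a bulk sample, fewer cells of a type and less RNA per cell cannot be told apart.

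Lymphocyte markers, of which 7 of 10 tested were lower and 0 higher, had a median log2 fold change of −1.54, near that of the members. They summed to between 3.39 and 15.9 TPM in miR-130a and between 17.1 and 114 TPM in control libraries. Their highest miR-130a library was 15, and their highest control libraries were 7 and 9, at 88.4 and 114 TPM, as for the antiviral genes. Cd3e, Cd3d, Cd2, Cd8a, Gzmb, Cd79a and Cd79b averaged under 1 TPM in miR-130a libraries. These genes met the filter only through the controls, and Cd2, Cd8a, Gzmb and Cd79b are among those called lower. Leaving out control library 7 lowered the count of 7 to 3, leaving out miR-130a library 13 or 14 lowered it to 4, and with control libraries 7 and 9 both left out it was 1 of 5 tested. Of 5 tested border macrophage and monocyte markers, 3 (Ms4a7, Ly6c2 and Plac8) were lower and 0 higher, with a median log2 fold change of −1.92. Mrc1 (−0.61, limma adjusted p = 0.101) and Pf4 (0.43, limma adjusted p = 0.306) did not pass. When control library 7, or miR-130a library 13 or 14, was left out, 1 of those 5 passed. The whole list summed to between 7.80 and 25.5 TPM in miR-130a and between 29.2 and 192 TPM in control libraries, with the same libraries on top. Much of this sum was Ly6c2, at 5.16 ± 3.71 TPM in miR-130a and 52.2 ± 45.8 TPM in control libraries (SD, n = 5 each). Among vascular markers, 8 of 12 endothelial and 5 of 10 mural and fibroblast genes were lower and 0 higher. Endothelial calls were 5 under median-ratio scaling and 3 under quantile normalization. The endothelial sum was 290 to 358 TPM in miR-130a and 394 to 471 TPM in control libraries, and the mural and fibroblast sum 127 to 179 and 212 to 285 TPM. Astrocyte, oligodendrocyte and cortical neuron lists had 0 of 10, 0 of 10 and 0 of 12 genes past the threshold in limma, and 5, 2 and 1 at an unadjusted p under 0.05. Under other settings up to 2 astrocyte, 1 oligodendrocyte and 2 neuronal genes passed. The part of any cell type in the antiviral result was not tested.

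The tissue matched its label as far as markers go. Slc17a7, the glutamate transporter of cortical excitatory neurons, was at 1007 ± 127 TPM in miR-130a and 1201 ± 313 TPM in control libraries (SD, n = 5 each). Of 6 striatal genes, 1 (Adora2a) was lower and 0 higher, and Drd2 and Adora2a averaged at most 4.17 TPM in either group.

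The interferon genes themselves were hardly seen. Of 21 listed, 19 were at 0 in all 10 libraries, Ifnb1 among them, and the highest value of any was 1.33 TPM. Ifng, the lymphocyte interferon, averaged 0.048 ± 0.107 TPM in miR-130a and 0.530 ± 0.546 TPM in control libraries and was too low to test. TPM keeps no depth, so no detection limit can be given.

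Of the interferon receptors and kinases, 5 of 8 tested were lower and 0 higher (median log2 fold change −0.45). Ifnar2, the signalling chain of the type I receptor, was at 17.6 ± 2.25 TPM in miR-130a and 32.8 ± 5.60 TPM in control libraries, and Ifnar1 at 16.9 ± 1.47 and 22.4 ± 2.98 TPM (SD, n = 5 each; limma adjusted p = 0.00204 and 0.0370). The interferon-gamma receptor chain Ifngr1, the shared receptor chain Il10rb and the kinase Tyk2 also fell, with log2 fold changes of −0.75, −1.03 and −0.53. Jak1, at 60.2 ± 3.30 TPM in miR-130a and 67.5 ± 10.3 TPM in control libraries (SD, n = 5 each), missed the threshold (limma adjusted p = 0.409). So did Jak2 (adjusted p = 0.330) and Ifngr2 (0.925). The count was 3 without control library 3, without control library 7 and without miR-130a library 14.

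The signal transducers and regulatory factors that carry the signal to DNA were lower in 8 of 10 cases, with 0 higher and a median of −1.59. Stat2 was at 11.9 ± 5.16 and 25.1 ± 4.33 TPM, and its partner Irf9 at 12.5 ± 5.91 and 39.2 ± 9.95 TPM in miR-130a and control libraries (SD, n = 5 each). Irf7, which amplifies the response, had the largest decrease of this list, at 14.6 ± 9.91 and 85.8 ± 33.0 TPM (SD, n = 5 each; log2 fold change −2.60, limma adjusted p = 0.00187). Stat3, Irf1, Irf5 and Irf8 also passed, while Irf2 (adjusted p = 0.0642) and Irf3 (0.152) did not.

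Sensors of viral nucleic acid and their adaptors were lower in 11 of 13 tested genes, with 0 higher and a median of −1.06. The RNA sensor Rigi was at 4.54 ± 1.57 TPM in miR-130a and 12.7 ± 2.41 TPM in control libraries, the DNA-sensing receptor Tlr9 at 1.12 ± 0.33 and 4.37 ± 1.37 TPM, and the adaptor Myd88 at 4.39 ± 0.94 and 10.3 ± 2.38 TPM (SD, n = 5 each; limma adjusted p from 0.00185 to 0.00223). Sting1 (adjusted p = 0.0739) and the kinase Tbk1 (0.814) did not pass.

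Other interferon-induced effectors were lower in 36 of 39 tested genes, with 0 higher and a median of −1.74. The antiviral zinc finger protein Zc3hav1 was at 2.67 ± 0.89 TPM in miR-130a and 9.34 ± 1.66 TPM in control libraries (SD, n = 5 each; log2 fold change −1.51, limma adjusted p = 0.000760). Lgals3bp, a secreted glycoprotein, and Oas1a, which makes the signal that activates RNase L, had the other lowest p-values, with log2 fold changes of −2.20 and −2.30. Gbp7 (adjusted p = 0.134), Iigp1 (0.0522) and Herc6 (0.0756) did not pass. Oas1b, Oas2, Oas3, Ifi207 and Helz2, all called lower, averaged under 1 TPM in miR-130a libraries and met the filter only through the controls. Brakes on the pathway were lower too, in 6 of 10 genes with 0 higher (median −1.09). Usp18, which silences the type I receptor, was at 7.83 ± 4.11 and 27.8 ± 5.75 TPM, and the phosphatase Ptpn6 at 5.70 ± 1.27 and 29.7 ± 12.6 TPM in miR-130a and control libraries (SD, n = 5 each; limma adjusted p = 0.00250 and 0.000927). Socs1, Socs3, the nuclease Trex1 and Samhd1, which is also listed as an effector, fell as well. Socs1 averaged 0.492 TPM in miR-130a libraries and met the filter only through the controls.

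**Figure D5:**
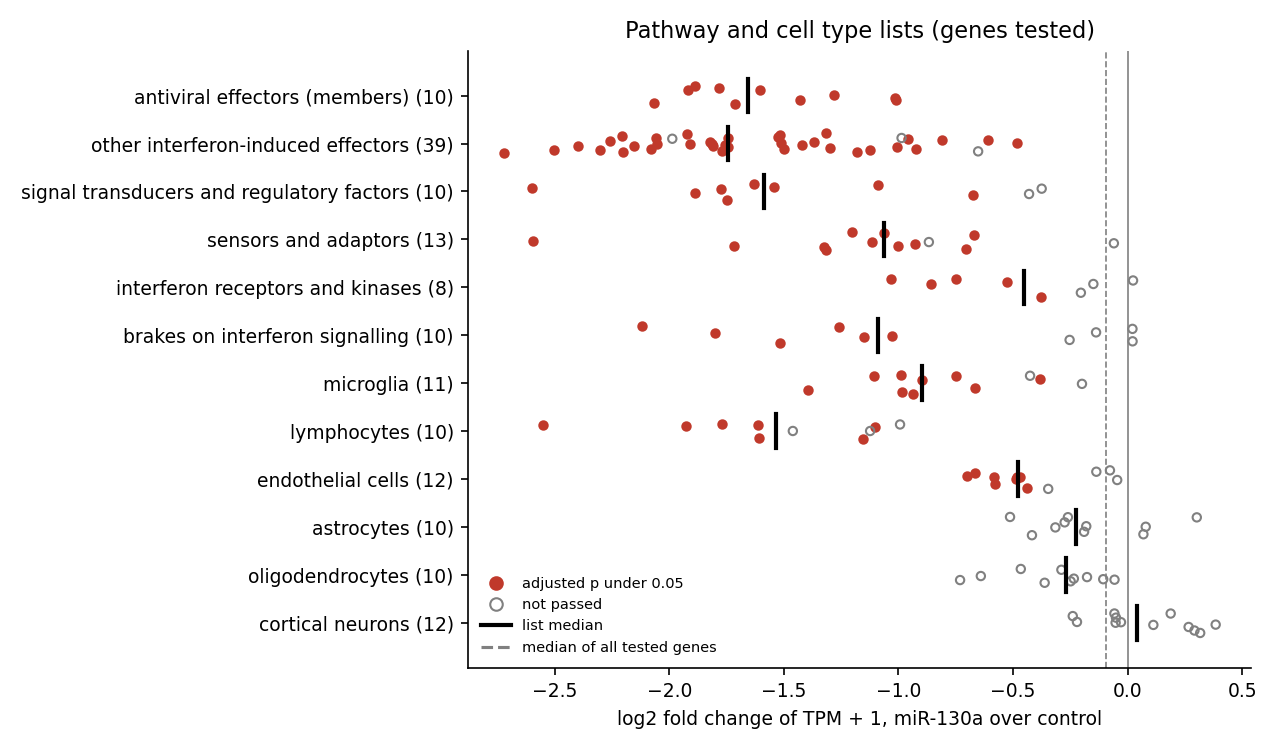
Log2 fold change of TPM + 1, miR-130a over control, for the tested genes of 12 lists; red points passed an adjusted p of 0.05, open points did not, black bars are list medians and the dashed line is the median of all tested genes. The members (median −1.66), other interferon-induced effectors (−1.74), signal transducers (−1.59) and lymphocytes (−1.54) lie far left of cortical neurons (0.04).

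Genes whose levels moved most like the members within the groups were found by correlating each tested gene, after subtracting its group means, with the mean of the members over the 10 libraries. Among the 8 highest were the RNA sensor Ifih1 (Pearson r = 0.964), Trim21 (0.961), Ifit3b (0.960), Kdm1b (0.955), Rnf213 (0.952), Gsap (0.952) and Rigi (0.949). Ifit3b shares sequence with the member Ifit3, so its value is not independent of the members. Depth and library are shared by all genes, so these values are a description. Of these 7, 6 were also lower in miR-130a libraries and passed in limma. Kdm1b, a histone demethylase gene, differed from the rest. It was at 2.46 ± 0.41 TPM in miR-130a and 2.39 ± 0.44 TPM in control libraries (SD, n = 5 each; log2 fold change 0.03, 95% interval −0.28 to 0.34, limma adjusted p = 0.928).

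Over all 15680 genes tested, 1767 were lower and 343 higher in miR-130a libraries. Scaling changed this balance. With median-ratio scaling the median of all genes was 0.01 and the calls were 1198 lower and 866 higher, and quantile normalization, with a median of 0.05, gave 1046 and 1071. The 10 members were lower and passed under both, with log2 fold changes from −1.95 to −0.92 and from −1.94 to −0.83.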

How the data were processed

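Per the labels' protocols, polyadenylated RNA of cortex punches went into stranded libraries, 5 per group. The build GRCm39 and the tools RSEM, HISAT2, fastp and DESeq2 are named, per the submitters' processing notes; versions and roles are not given in the sources used here. The authors deposited TPM per gene and library, which sum to about the same total in each library; depth is unknown, and no counting interval or count model was used. The authors' columns of group means were not used.

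Columns were assigned by sample title. Values were analysed as log2(TPM + 1), for 15680 of 78317 genes with a mean of at least 1 TPM, by limma 3.58.1 (lmFit, then eBayes, trend on) run in R 4.3.3 (reading with data.table, version 1.17.8). Tests were 2-sided; adjusted p-values (Benjamini-Hochberg) under 0.05 passed. The fit was used after a test on simulated data. No batch is labelled. The labels do not say that each library is a separate mouse, so p-values measure the spread between libraries. All 10 members passed the filter, Mx1 only through the control libraries. Members, lists and tests were chosen with earlier results of these data known. Named genes were the members, the genes of lowest p per list, pathway genes past the threshold and the 8 most similar genes; some genes are not reported here. Alternatives were another pseudocount, filters, scalings, variance settings and omitted libraries.

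Promoters and the microRNA came from RefSeq tables of GRCm38.p6 and transcripts from GENCODE M21, a build other than that of the TPM values, matched by symbol and gene identifier. Windows of 75 bases were used for shared sequence, as the read length is not known. Python 3.11.15, pandas 2.3.3, numpy 2.4.6 and matplotlib 3.10.9 were used.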

Additional observations from a re-analysis of the deposited data

Results flagged for a closer look

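In 5 of the 20 member groups examined, the highest library stood apart from the rest of its group by a Dixon gap on TPM. Each time it was miR-130a library 15. Chance would mark about 1 in 20 such groups if values were normally distributed, which was not tested for TPM. Bst2 was at 97.4 TPM there, with 48.6 TPM in the next library. Rtp4 was at 27.4 TPM, with 10.3 TPM next, and Xaf1 at 36.1 TPM, with 19.2 TPM next. Ifi44 was at 5.25 TPM, with 2.10 TPM next, and Rsad2 at 6.04 TPM, with 2.89 TPM next. On the log2 scale 1 of the 20 groups was marked. The 5 genes share the library, so these are not separate events. Library 15 also had the highest summed lymphocyte markers of its group, 15.9 TPM, while its microglial sum of 407 TPM lay inside the range of the other 4; their part was not tested.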

How the results depend on the processing

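All 206 values of the members under 21 alternatives stayed negative, and 192 kept the call; the 14 lost calls belong to Ifit2, Bst2, Rsad2 and Mx1. Testing without a filter on low values (36601 genes tested) left 6 members, 3 receptors and kinases and 1302 genes in all. A mean of at least 5 TPM left 7 sensors. Endothelial calls were 5 under median-ratio scaling, 3 under quantile normalization and 5 without control libraries 7 and 9 and miR-130a library 15; receptor and kinase calls were 3 under quantile normalization. Leaving out each library in turn gave 8 to 10 members, 1228 to 3413 genes in all (lowest without control library 7, highest without control library 9), 3 to 5 receptors and kinases, 8 to 9 transducers, 11 to 12 sensors, 29 to 38 other effectors, 4 to 6 brakes, 8 to 10 microglial and 6 to 9 endothelial genes. The total was 1313 without miR-130a library 13 and 1278 without library 14. Genes called higher (343) numbered 140 to 1071 over the 21 alternatives, lowest without control library 7 and highest under quantile normalization; they were 201 without control library 3, 228 without control library 4, 149, 160 and 191 without miR-130a libraries 13, 14 and 15, and 178 without a filter. The remaining lists were rerun after the data were seen and gave 1 to 9 lymphocyte, 1 to 3 macrophage and monocyte, 3 to 7 mural and fibroblast, 0 to 2 astrocyte, 0 to 1 oligodendrocyte, 0 to 2 neuronal and 0 to 1 striatal genes. Rescaling to protein-coding genes left out Mx1 and the filter at 5 TPM left out Mx1, Ifi44 and Rsad2. The cause of these shifts was not tested. No paired analysis was possible because the groups share no library number.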

Other observations

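The deposited table annotates 7 of the 10 members with the term defense response to virus, all but Ifit2, Ifi44 and Xaf1. Of the 116 other tested genes with that term, 50 were lower and 1 higher in miR-130a libraries, and 65 did not pass (limma, median log2 fold change −0.51). The 1 higher gene, named after its value was seen, was Becn1, which acts in autophagy. For cellular response to interferon-beta, carried by Ifit1 and Ifit3, 23 of 37 other tested genes were lower and 1 was higher, with a median of −1.30; the higher one was Ndufa13, a subunit of respiratory complex I. The terms were chosen after the files were read.

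Rnf213, a large ubiquitin ligase with a place among the genes most similar to the members, was at 1.69 ± 1.22 TPM in miR-130a and 7.98 ± 1.73 TPM in control libraries (SD, n = 5 each; log2 fold change −1.82, limma adjusted p = 0.00158). Gsap was at 1.38 ± 0.49 and 2.92 ± 0.38 TPM (SD, n = 5 each; −0.74, adjusted p = 0.0134).

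The spread among miR-130a libraries, as SD over mean, was larger than among controls for all 10 members, from 39.7% for Ifitm3 to 76.7% for Ifi44 against 17.8% to 49.1%. Without library 15 it stayed above the control value for 5 of 10 members (Ifit1, Ifit2, Ifit3, Mx1 and Ifi44), with 83.2% for Mx1 against 17.8% in controls, and was below it for the other 5, with 17.3% for Ifitm3 against 37.4%.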
